A study of Mus musculus with 3 samples.

Results

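The chaperonin TRiC and its partner prefoldin were examined through 10 genes in RNA-Seq libraries of KO-actin cells. The members were chosen by name, as the 8 subunits of TRiC (Tcp1, Cct2, Cct3, Cct4, Cct5, Cct6a, Cct7 and Cct8) and 2 of the 6 subunits of prefoldin (Pfdn1 and Pfdn2). All 10 were found among the 46603 genes counted. KO-actin denotes mouse embryonic fibroblasts (MEFs) whose β-actin gene was knocked out and which express β-actin joined to a nuclear localization signal (NLS), a tag that carries proteins into the nucleus. Their genotype is labelled Beta-actin KO-NLS, and all 3 libraries share both the knockout and the NLS-tagged β-actin. They came from a cell line made earlier, and the promoter of the transgene and the number of clones are not given in the sources used here. They form 1 condition, so no comparison between genotypes was made, and wild-type or knockout cells were not analysed here. The libraries were made from polyadenylated RNA and held between 44383636 and 49932446 counts. The labels do not say whether replicates 1 to 3 are separate cultures, so the spread between them and every p-value below may be technical.

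TRiC, also called CCT, is a barrel of a pair of stacked rings, each built from all of the subunits, that closes over an unfolded protein and uses ATP to fold it. Actin and tubulin are its best known clients and cannot reach their native state without it. Prefoldin is a smaller complex that takes up newly made actin and tubulin chains and hands them to the TRiC cavity. Since every TRiC ring carries each subunit once, the libraries were asked how even the RNA levels of the subunits were.

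The 8 TRiC genes were abundant, and their levels differed by at most 1.11-fold between libraries. Levels of a gene are given as CPM, which are counts scaled to a library size of 1000000 with edgeR's TMM method, whose lowest factor was 0.996 (replicate 2). Tcp1, the subunit that gave the complex its name, had 581, 531 and 560 CPM in replicates 1 to 3 (557 ± 25.2, SD, n = 3). Cct2 had 569, 553 and 563 CPM (562 ± 7.83). Cct3 had 500, 491 and 502 CPM (498 ± 5.91). In each of these genes replicate 2 was lowest, and the gap was widest for Tcp1. Cct4 had 399, 377 and 384 CPM (387 ± 11.2). Cct5, a subunit with strong ATPase activity, had 690, 678 and 696 CPM (688 ± 8.95). Cct6a, the form of its subunit made throughout the body, had 542, 492 and 545 CPM (526 ± 29.8). Replicates 1 and 3 of Cct6a were nearly equal and replicate 2 was apart from them. Cct7 had 500, 490 and 498 CPM (496 ± 5.31), the smallest relative spread of the 8 genes, with a CV of 1.07%. Cct8 had 545, 520 and 568 CPM (544 ± 23.7). The highest library exceeded the lowest by 1.02-fold in Cct3 and Cct7 and by 1.11-fold in Cct6a, the narrowest and the widest of the TRiC genes. The summed level of the 8 genes came to 4325, 4132 and 4316 CPM in replicates 1 to 3.

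Pfdn1, a β-class subunit of prefoldin, had 58.9, 62.9 and 64.8 CPM (62.2 ± 3.04, SD, n = 3). Pfdn2 had 70.4, 76.7 and 75.5 CPM (74.2 ± 3.38). Both genes were lowest in replicate 1, whereas all 8 TRiC genes were lowest in replicate 2, as were 38.7% of all genes tested. Of the other prefoldin genes, Pfdn5 and Pfdn6 were lowest in replicate 1, and Vbp1 and Pfdn4 in replicate 2. The member library with the fewest counts held 2889, against a floor of 3 counts, the most that could underlie an observed 0 (at most 0.0673 CPM). This floor covers counting error only. In RNA pooled from many cells, fewer cells that express a gene and less RNA per cell cannot be told apart.

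**Figure D1:**
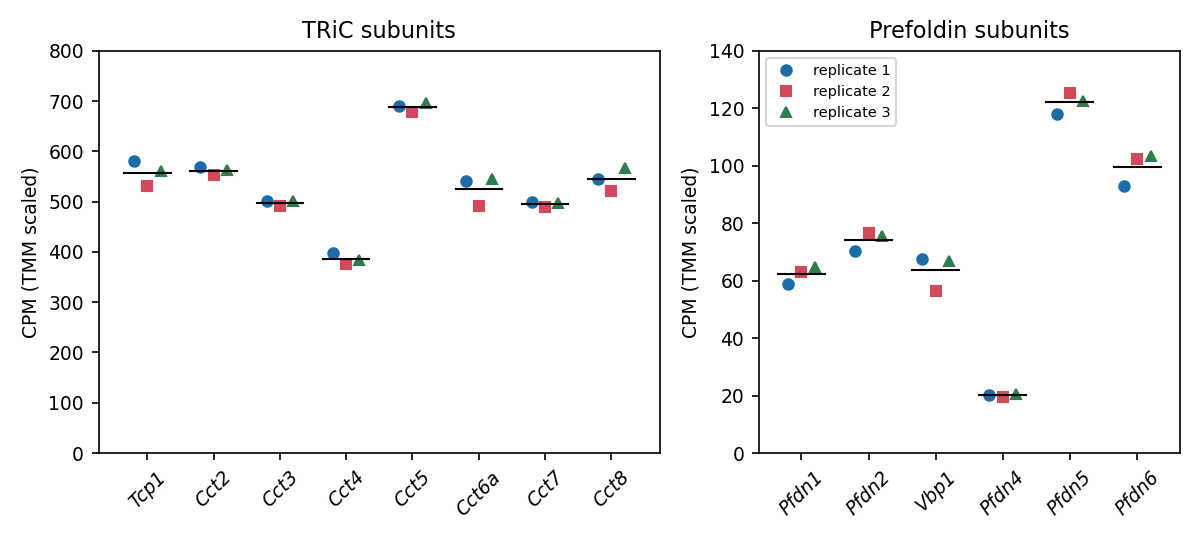
CPM (TMM scaled, vertical axes from 0, with different ranges) of the 8 TRiC subunits and the 6 prefoldin subunits in each KO-actin library; points are replicates and lines are means of 3 libraries. TRiC means run from 387 (Cct4) to 688 CPM (Cct5) and prefoldin means from 20.1 (Pfdn4) to 122 CPM (Pfdn5), and replicate 2 is the lowest point of all 8 TRiC genes.

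Actb, the targeted gene, had 53814, 54883 and 47505 counts. How many of them came from the introduced NLS-tagged copy, the disrupted locus or near-identical actin genes cannot be told. The fibroblast label was checked against 8 marker genes, all above the floor of 3 counts. Vim, Col1a1 and Fn1 lay between 3578 and 4562 CPM, whereas Thy1 had only 0.836 CPM and Pdgfra 4.97 CPM. Of 8 markers of smooth muscle, epithelial, blood, endothelial and neuronal cells, the highest was Des at 10.4 CPM, and Epcam and Ptprc had at most 1 count in any library. The smooth muscle actins Acta2 (6606 CPM) and Actg2 (97.2 CPM), which were not on that marker list, were nevertheless expressed.

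Because longer mRNAs yield more reads, levels of different genes were compared per kilobase of exon, taking every base that any transcript of the gene covers. On this scale Cct5 (249 ± 3.23 CPM per kilobase of exon) was followed by Cct2 (220 ± 3.06), Cct8 (176 ± 7.68) and Cct6a (145 ± 8.22). Tcp1 (111 ± 5.0), Cct4 (92.0 ± 2.66), Cct3 (78.2 ± 0.928) and Cct7 (73.2 ± 0.783) were lower. Of 11251 protein-coding genes with at least 1 CPM, between 94.3% (Cct7) and 99% (Cct5) had a lower level on this scale. The order was the same in 3 of 3 libraries, and no neighbours in it overlapped. Cct5 exceeded Cct7 by 3.40-fold. Steps between neighbours ran from 1.07-fold (Cct3 over Cct7) to 1.31-fold (Cct6a over Tcp1). The exact sign-flip permutation test (two-sided) gave p = 0.25 for each of 8 pairs of subunits (adjusted p = 0.25), which is the smallest p that 3 libraries allow. No pair could therefore pass 0.05 in this design, and the order rests on the lack of overlap.

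The order depended on which bases were taken as the length of the gene. The exons of Cct3 covered 6370 bases in GENCODE M21, 3.22 times the 1977 bases of its longest protein-coding transcript. That ratio was 2.78 for Cct7, 2.06 for Tcp1 and 1.69 for Cct4, and lay between 1.29 and 1.49 for Cct2, Cct5, Cct6a and Cct8. Cct6a is listed in this release with no coding transcript, and its longest transcript of any kind, of 2454 bases, was used in its place. Per kilobase of the longest coding transcript, Cct5 remained first at 371 ± 4.83 CPM and Cct2 second at 287 ± 4.0. Cct3 moved from the seventh place to the third, at 252 ± 2.99 CPM per kilobase of transcript. Tcp1 (228 ± 10.3), Cct8 (227 ± 9.90), Cct6a (214 ± 12.1) and Cct7 (203 ± 2.17) came next, and each of these overlapped its neighbour in this run. Cct4 was lowest at 156 ± 4.50 CPM per kilobase of transcript, and Cct5 exceeded it by 2.39-fold. The same exact permutation test gave p = 0.25 or more for each of 8 pairs on this scale. Per kilobase of coding sequence, which leaves out Cct6a, Cct5 had 424 ± 5.51 and Cct4 239 ± 6.92 CPM. By its mean, Cct5 was the highest subunit and Cct2 the second under all 4 choices, namely these 3 lengths and no length. Cct4 was the lowest under each of them except the exon length.

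**Figure D2:**
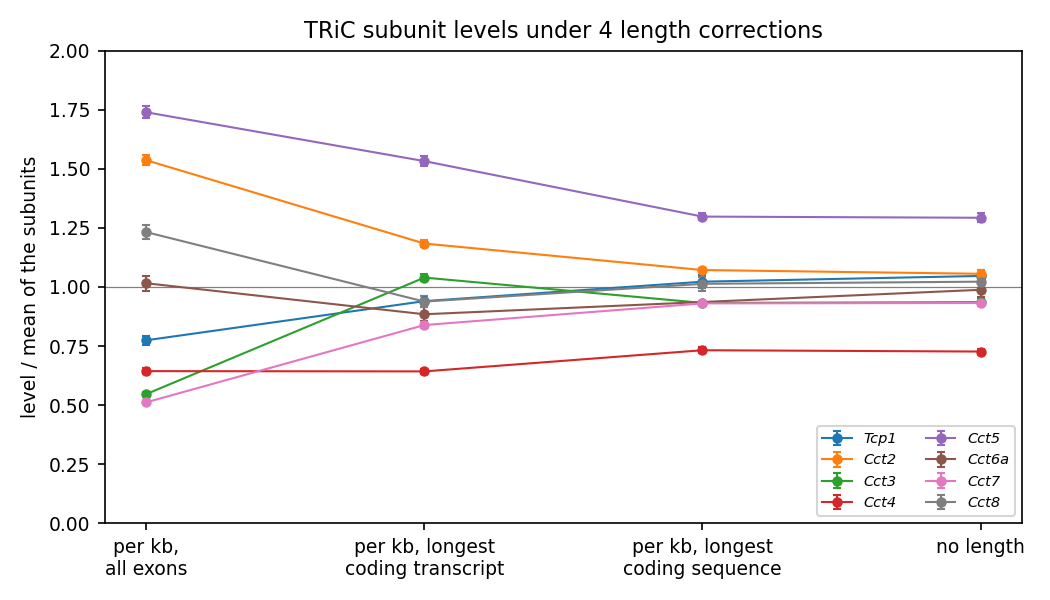
Level of each TRiC subunit divided by the mean of the subunits (vertical axis, a ratio) after dividing CPM by 3 kinds of gene length or by none; points are means and bars SD of 3 libraries. Cct5 lies at 1.74 times the mean per kilobase of exon and 1.29 times with no length, Cct3 at 0.547 and 0.936 times, and Cct4 at 0.644 and 0.727 times.

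Balance was expressed as the coefficient of variation (CV) of level over the subunits of a complex, computed in each library. For TRiC the CV was 46.5 ± 0.733% (SD, n = 3) per kilobase of exon, 26.6 ± 0.942% per kilobase of the longest coding transcript and 17.2 ± 0.547% per kilobase of coding sequence over 7 subunits. With no length it was 15.9 ± 0.517%. The coding sequences of those 7 subunits were all between 1605 and 1668 bases long, so dividing by them changed little. The CV moved far more with the choice of length than with the library.

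Other complexes with fixed subunits gave values to place beside these. The MCM2-7 helicase, which unwinds DNA for replication from 6 different subunits, had a CV of 21.3 ± 0.807% per kilobase of exon and 24.8 ± 2.01% per kilobase of transcript. The 14 genes of the 20S proteasome core, the barrel that degrades proteins, had 56.1 ± 1.86% and 55.4 ± 2.23%. The 8 genes of the RNA exosome core that were analysed had 70.1 ± 2.73% and 42.7 ± 0.768%. Per kilobase of exon, TRiC lay above the MCM helicase and under the other 2 complexes in every library. Per kilobase of transcript its 3 values, from 25.7 to 27.6%, overlapped those of the MCM helicase, which ran from 23.6 to 27.1%. On the other scales the CV of TRiC was below that of the MCM helicase in each library: per kilobase of coding sequence it had 16.5, 17.4 and 17.5% in replicates 1 to 3, against 17.4, 21.3 and 18.4% for the MCM helicase. With no length it had 15.3, 16.2 and 16.2%, against 15.9, 20.3 and 16.8%. The side on which TRiC lay of the MCM helicase thus turned with the length used, while TRiC was under the proteasome and the exosome on all 4 scales. These are descriptions of 3 libraries, with no test between complexes.

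**Figure D3:**
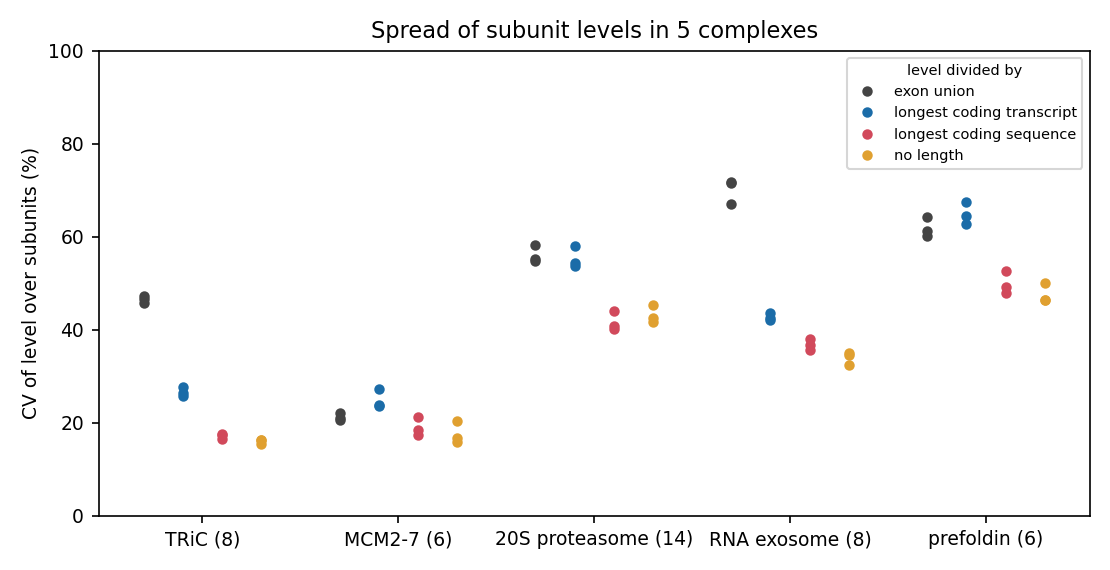
CV of level over the subunits of 5 complexes (vertical axis, percent, from 0), with 1 point per KO-actin library and 1 colour per choice of length; numbers in parentheses are subunits, and the TRiC value per coding sequence has 7. TRiC moves from 46.5% per kilobase of exon to 15.9% with no length, while the lowest point of the 20S proteasome is 40.2%.

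Prefoldin was less even than TRiC in its RNA levels. Per kilobase of exon, Pfdn5 (87.5 ± 2.60 CPM) and Pfdn6 (83.5 ± 4.78) were highest and their ranges overlapped. Pfdn1 followed at 56.1 ± 2.74 and Pfdn2 at 38.3 ± 1.74 CPM per kilobase of exon, levels that 91.9% and 86.9% of the 11251 coding genes did not reach. Vbp1, which encodes prefoldin subunit 3, had 29.8 ± 2.95 and Pfdn4 7.99 ± 0.218. The CV over the 6 genes was 61.8 ± 2.10% per kilobase of exon and 64.9 ± 2.42% per kilobase of transcript, above the TRiC value in every library. Averaged per subunit, prefoldin stood at 0.335, 0.368 and 0.358 of the TRiC level in replicates 1 to 3 (0.354 ± 0.0166), so that TRiC was 2.83 ± 0.136-fold higher. With the transcript length this ratio of prefoldin to TRiC was 0.273 ± 0.0125, with the coding sequence 0.518, and with no length 0.138. Prefoldin was the lower complex on each scale. Its coding sequences are short, from 366 to 588 bases, and the size of the gap moved with the length used. Pfdn1 (ENSMUSG00000024346) lies at chr18:36403676-36454524 on the minus strand, and Pfdn2 (ENSMUSG00000006412) at chr1:171345670-171359254 on the plus strand, of GRCm38.

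The 10 members lay on 10 different chromosomes. On GRCm38 with GENCODE M21, Tcp1 (ENSMUSG00000068039) lies at chr17:12915701-12925067 and Cct3 (ENSMUSG00000001416) at chr3:88297116-88321767, both on the plus strand. Cct4 (ENSMUSG00000007739) lies at chr11:22990519-23003780, Cct6a (ENSMUSG00000029447) at chr5:129786998-129846371 and Cct7 (ENSMUSG00000030007) at chr6:85451514-85468475, also on the plus strand. Cct2 (ENSMUSG00000034024) at chr10:117051001-117063814, Cct5 (ENSMUSG00000022234) at chr15:31590800-31601804 and Cct8 (ENSMUSG00000025613) at chr16:87483326-87495873 are on the minus strand. To show what the start regions of these separate loci hold, windows from 250 bases before to 50 after each RefSeq start (GRCm38.p6) were searched for 6 motifs on both strands. Windows were present for 8 of the 10 members, among them 7 TRiC genes with 9 windows. Pfdn1 and Cct4 had none, so no motifs are given for Cct4, the lowest TRiC subunit on every scale except per kilobase of exon.

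Each of the 7 TRiC genes with a window held a GC box in at least 1 of its windows, and none held the TATA box letters searched. The GC box GGGCGG, bound by Sp1-type factors, was in 8 of their 9 windows, against 35.7% of the 32851 windows of all genes. The ETS core CCGGAA was in 5 of the 9 windows, from 5 of 7 genes (all windows 14.9%). The CCAAT box, the motif of NF-Y, was in 4 of the 9 windows (all windows 37.4%). These belonged to 4 of 7 genes, namely Cct3, Cct6a, Cct7 and Tcp1. The TATA box TATAAA was in 0 of the 9 windows (all windows 13.6%). The heat shock element pair GAANNTTC was found in Cct2 alone of these genes (all windows 7.86%), and the NRF1-type run GCATGCGC in Cct5 alone (all windows 2.71%). The GC content of the TRiC windows ran from 47.3 to 67.7%, against a median of 52.7% over all windows. All TRiC windows except that at 47.3%, of Cct5, lay above this median. The shares over all windows were not matched for GC content, and a gene with several windows has more chances of a match. A match is a string of letters, not a measured binding site.

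The 4 windows below belong to the highest subunits, Cct5 and Cct2, to the subunit lowest per kilobase of exon, Cct7, and to Tcp1. They are written 5′ to 3′ along the strand of the gene, with every match to one of the 6 motifs, on either strand, in capitals. In Cct5 the capitals near the 3′ end are a pair of overlapping matches to the NRF1-type run, one on each strand. The Cct5 window is at chr15:31601797-31602096 on the minus strand, Cct2 at chr10:117063803-117064102 on the minus strand, Cct7 at chr6:85451255-85451554 and Tcp1 at chr17:12916079-12916378 on the plus strand.
Cct5: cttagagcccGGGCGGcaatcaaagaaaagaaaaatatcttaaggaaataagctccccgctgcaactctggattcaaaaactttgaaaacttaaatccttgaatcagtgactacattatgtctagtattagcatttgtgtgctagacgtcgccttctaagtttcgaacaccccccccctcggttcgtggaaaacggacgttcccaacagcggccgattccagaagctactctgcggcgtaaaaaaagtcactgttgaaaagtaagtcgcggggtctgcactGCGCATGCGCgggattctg
Cct2: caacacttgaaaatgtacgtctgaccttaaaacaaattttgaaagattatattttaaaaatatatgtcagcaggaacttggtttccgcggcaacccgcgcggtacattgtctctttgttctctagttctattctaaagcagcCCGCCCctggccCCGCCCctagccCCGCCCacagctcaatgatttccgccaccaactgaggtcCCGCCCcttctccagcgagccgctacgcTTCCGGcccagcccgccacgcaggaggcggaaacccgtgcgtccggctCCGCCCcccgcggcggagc
Cct7: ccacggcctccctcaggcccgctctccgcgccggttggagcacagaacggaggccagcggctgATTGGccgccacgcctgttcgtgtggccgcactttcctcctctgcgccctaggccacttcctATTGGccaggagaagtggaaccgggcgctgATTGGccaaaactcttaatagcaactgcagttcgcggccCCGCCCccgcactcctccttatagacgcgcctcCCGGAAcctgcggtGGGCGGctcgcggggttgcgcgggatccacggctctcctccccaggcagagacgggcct
Tcp1: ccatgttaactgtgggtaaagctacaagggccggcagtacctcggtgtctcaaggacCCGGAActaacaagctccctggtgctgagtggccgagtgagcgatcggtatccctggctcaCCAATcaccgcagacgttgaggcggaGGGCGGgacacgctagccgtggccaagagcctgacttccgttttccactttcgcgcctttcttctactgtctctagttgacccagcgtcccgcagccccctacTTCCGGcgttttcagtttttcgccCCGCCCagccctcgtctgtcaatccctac

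The windows of Cct7 and Tcp1 held matches to 3 motifs each, the GC box, the ETS core and the CCAAT box. Cct5 and Cct2, the highest subunits per kilobase, held no CCAAT box in any of their windows, and the heat shock element pair of Cct2 lies in its other window. Cct6a combined GC and CCAAT boxes, with 5 matches, and Cct8 combined the GC box with the ETS core. Cct5 had a lone GC box near the 5′ end of the window shown, and its other window held only the ETS core.

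Replicates of most members differed by more than counting error, as did most genes with 100 to 1000 CPM. A chi-square with 2 degrees of freedom compared the libraries for each of 13814 genes whose counts reached 10 in all of them, a filter that all 10 members passed. With Benjamini-Hochberg adjustment over all of them, 8 of 10 members varied beyond counting error, against 43.8% of all genes tested. Since small differences are detectable in deep genes, the share among 2546 genes with 100 to 1000 CPM was 74.7%, near the 6 of 8 TRiC genes called. Cct6a had the smallest adjusted p among the members (chi-square, 3.27e-34), followed by Tcp1 (1.97e-23) and Cct8 (3.48e-20). Cct3 (adjusted p = 0.0711, chi-square) and Cct7 (0.115) were not called. The calls of Cct5 (0.0121) and Cct2 (0.0132) were close to the threshold of 0.05. Pfdn1 (adjusted p = 0.0031, chi-square) and Pfdn2 (0.0020) were called as well. Fewer calls were made when a library was left out, among the members and among all genes. Without replicate 1, 4 members were called, against 32.9% of genes tested. Without replicate 2, 5 members were called, against 12.4% of genes tested. The call of Cct6a was lost without replicate 2 (adjusted p = 0.752, chi-square).

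The subunits differed in how much they varied, as shown by their SD of log2 CPM. It was 0.083 for Cct6a, higher than in 82.9% of the genes with 100 to 1000 CPM. Tcp1 (0.066) and Cct8 (0.063) exceeded 67.9% and 65.5% of those genes. Cct4 (0.042) exceeded 40.5%. Cct2, Cct5, Cct3 and Cct7, with SDs between 0.016 and 0.020, were among the steadier genes and exceeded only 7.19% (Cct7) to 11.9% (Cct2) of them. Counting alone would give an SD of 0.00795 to 0.0106 for the TRiC genes.

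All 8 TRiC genes were lowest in replicate 2 under TMM, DESeq2 and total-count scaling, against 38.7% of all genes tested and 40.5% of those with 100 to 1000 CPM under TMM. The log2 difference of replicate 2 from the mean of replicates 1 and 3 was -0.14 for Cct6a, -0.10 for Tcp1, -0.10 for Cct8 and -0.06 for Cct4. It was -0.03 for each of the other 4 subunits. Prefoldin went both ways, with Pfdn1 (0.03), Pfdn2 (0.07), Pfdn5 (0.06) and Pfdn6 (0.06) higher in replicate 2 than the mean of the other libraries. Vbp1 (-0.25) and Pfdn4 (-0.06) were lowest in replicate 2, as the TRiC genes were, and the difference of Vbp1 was larger than that of any TRiC gene. Over all genes this difference moved with GC content, from a median of -0.19 in the bin of lowest GC content to 0.19 in the bin of highest, in 50 bins. The TRiC transcripts had 43.3% (Cct8) to 54.0% GC (Cct7), with a median of 47.4% against 50.2% for all genes tested. Relative to the median of their own GC bin, the TRiC differences were -0.10 for Cct6a, -0.08 for Cct7 and -0.06 for Tcp1, and they lay between -0.03 and 0.01 for the other 5. Cct2 and Cct4 were then above their bins. On this scale Vbp1 was at -0.06, a smaller difference than those of Cct6a and Cct7. The other prefoldin genes were above their bins, namely Pfdn1 (0.03), Pfdn2 (0.10), Pfdn4 (0.07), Pfdn5 (0.01) and Pfdn6 (0.01). How far GC content accounts for the low replicate 2 values of TRiC was not tested further. A quasi-likelihood fit in edgeR set replicate 2 against the other 2 libraries, a comparison of libraries and not of conditions. This fit allows spread beyond counting error and called fewer members than the chi-square. Replicate 2 stood alone on its side and was the library in which all 8 TRiC genes were lowest. No conclusion was therefore drawn from the p-values of this fit, which are not given.

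**Figure D4:**
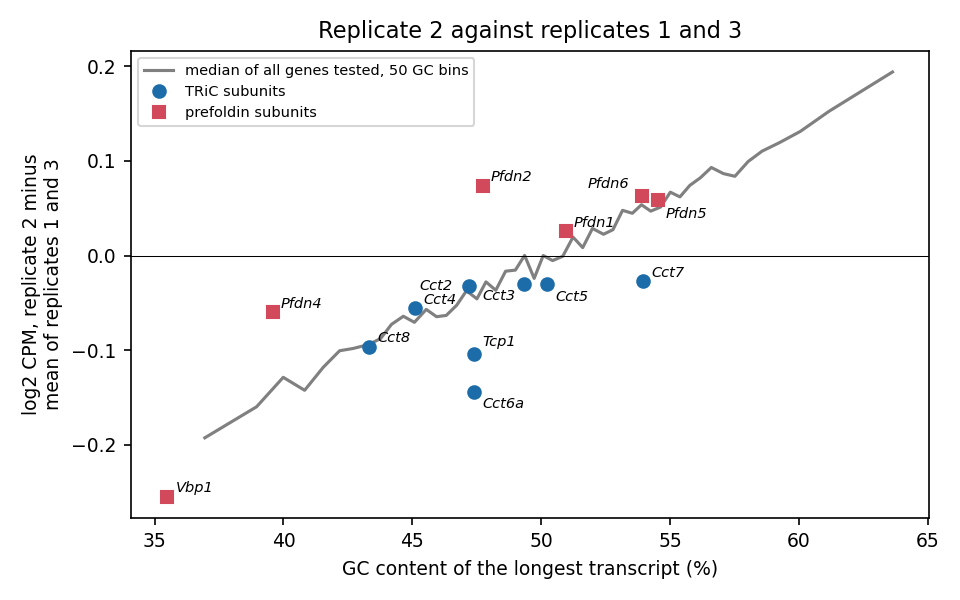
Log2 difference of replicate 2 from the mean of replicates 1 and 3 (vertical axis, TMM-scaled CPM) against GC content of the longest transcript (horizontal axis, percent) for TRiC and prefoldin subunits, with the median of 50 GC bins of all genes tested as a line. Cct6a lies lowest of the TRiC genes at -0.14, Cct8 lies on the line at -0.10, and Pfdn2 lies above it at 0.07.

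Several member rows hold sequence that another gene also holds. The longest transcript of Tcp1 shared 22.2% of its 50-base windows, on either strand, with other genes, 21.9% with Acat3 and 12.1% with Acat2, which make acetyl-CoA acetyltransferases. Acat3 runs on the opposite strand, its exons overlapped those of Tcp1 by 571 bases, and it had only 17, 14 and 14 counts. Cct6a shared 16.8% of its windows with Psph, the phosphoserine phosphatase gene on the opposite strand, whose exons overlapped by 452 bases and which had 3953, 4154 and 3500 counts. Pfdn2 shared 28.8% with Klhdc9, which had 0 counts in every library. Among the other prefoldin genes, Pfdn5 shared 27.0%, with Gm5644 (15.6%) and with Myg1 (11.5%), which lies on the same strand and had 4732, 4827 and 4295 counts. The exons of Pfdn4 overlapped those of Gm16796, on the opposite strand, by 639 bases, and Gm16796 had 3, 11 and 3 counts. The spread over prefoldin subunits was not recomputed for these overlaps. Cct7 shared 8.28%, mostly with Pradc1 (214 bases of exon overlap), and Cct8 6.10% with Usp16 (192 bases). Tcp1 exons also overlapped those of Mrpl18 by 141 bases and of the snoRNA Gm26130 by 138 bases, and Cct6a exons those of Snora15 by 102 bases. Cct2, Cct5 and Pfdn1 shared no window. Whether reads were counted by strand is not given in the sources used here. Without it, reads from overlaps on opposite strands cannot be told apart by gene. Gm26130 and Snora15 lie on the same strand as the member they overlap, so strand would not separate their reads. All counts of partners that held at least 10% of a member's windows were then added, for TRiC Acat3 and Acat2 to Tcp1 and Psph to Cct6a. This raised Tcp1 from 557 to 617 CPM and Cct6a from 526 to 607 CPM, with the CV over subunits at 45% per kilobase of exon. Counts of Pradc1, Usp16 and Mrpl18 were not added, so this does not cover every overlap.

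The cofactors of TRiC lay below its subunits, and the highest actin and tubulin genes lay above them. Of 5 phosducin-like and other cofactors of TRiC, 4 were above the floor, led by Pdcl3 at 30.7 ± 0.630 CPM per kilobase of exon. Pdcd5 (16.3 ± 0.737), Pdcl (8.27 ± 0.335) and Txndc9 (7.92 ± 0.400) were below it, and Pdcl2, a germ cell gene, had 0 counts in each library, which allows up to 3 counts. Cct6b, the testis form of the Cct6a subunit, had 15, 6 and 3 counts, against 24266 or more for Cct6a. The chaperonin-like genes of Bardet-Biedl syndrome reached 8.11 ± 0.388 (Mkks), 5.60 ± 0.0445 (Bbs12) and 1.03 ± 0.0899 CPM per kilobase of exon (Bbs10). Of the 4 tested cofactors 2 varied between libraries by the chi-square, against 43.8% of all genes. Of these, Txndc9 was lower and Pdcd5 higher in replicate 2.

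Actin genes spanned levels far above and below the chaperonin on the same scale. Acta2 had 3008 ± 33.3, Actg1 1868 ± 87.1 and Actb 405 ± 8.65 CPM per kilobase of exon, and all 3 lay above Cct5. Actg2 (62.4 ± 0.974) and Acta1 (1.57 ± 0.220) lay below every TRiC subunit, and Actc1 had at most 1 count. The summed actin level was 37.4 ± 1.48 times the mean TRiC subunit (SD, n = 3), with 37.4, 38.9 and 35.9 in replicates 1 to 3. This ratio moved with the length used, to 26.6 ± 1.03 with the longest coding transcript and 24.0 ± 0.957 with no length. The 12 tubulin genes summed to 13.9 ± 0.573 times the mean TRiC subunit per kilobase of exon, 9.66 ± 0.396 times with the transcript length and 9.25 ± 0.401 times with no length. They were led by Tubb5 (679 ± 16.2), Tuba1b (509 ± 16.8) and Tuba1a (228 ± 4.07). Their lowest were Tubb4a (1.39 ± 0.0797), Tubb3 (5.86 ± 0.537) and Tuba4a (25.4 ± 0.563). Among 10 other clients, the G protein β subunits Gnb1 (170 ± 2.21) and Gnb2 (138 ± 4.89) and the cell cycle activator Cdc20 (139 ± 6.24) were highest and Mlst8, an mTOR subunit, was lowest (6.91 ± 0.197). Vhl (8.59 ± 0.215) and Stat3 (10.7 ± 0.236) were the next lowest. Between libraries, 3 of 5 tested actin genes, 9 of 12 tubulin genes and 5 of 10 other clients varied by the chi-square. The share called was 43.8% of all genes and 74.7% of genes with 100 to 1000 CPM. Near-identical copies of actin and tubulin share reads, so the split among those genes is uncertain. How reads that map to several places were counted is not given, so the summed levels are uncertain too. The actin sum also holds the Actb counts, whose origin cannot be told.

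**Figure D5:**
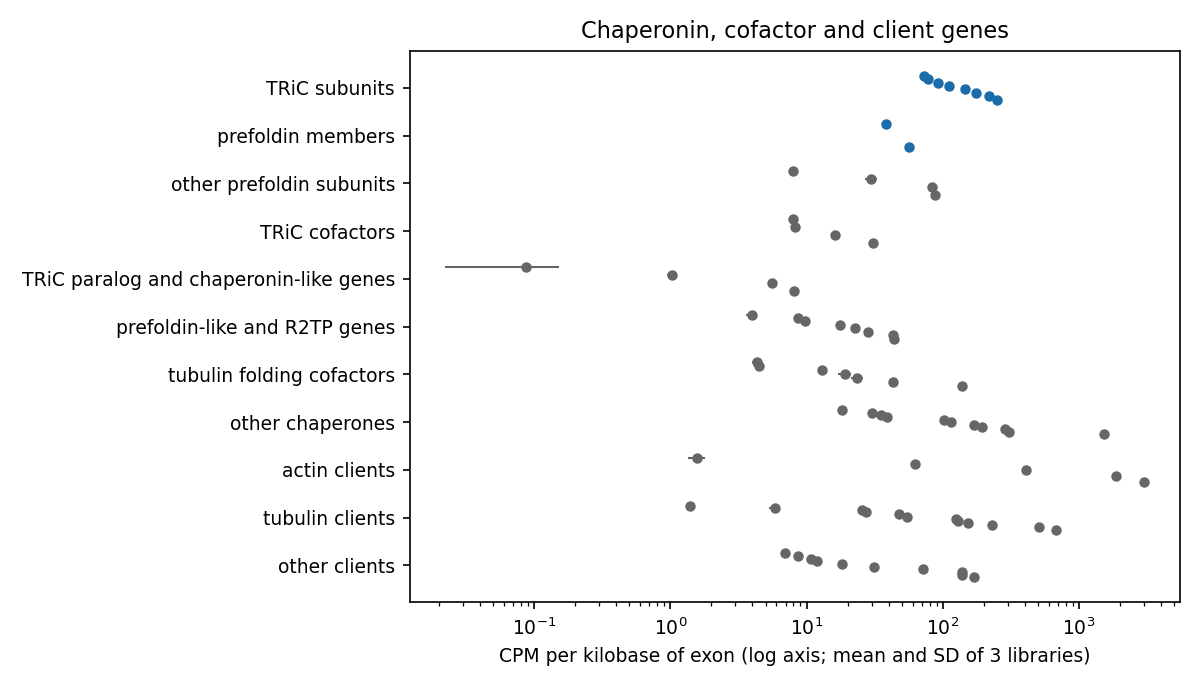
CPM per kilobase of exon (horizontal log axis) of chaperonin, cofactor and client genes by list; points are means and bars SD of 3 libraries, and genes under 0.05 are not drawn. TRiC subunits lie between 73.2 and 249, with the highest actin (3008) and tubulin (679) genes to their right and the TRiC cofactors, at most 30.7, to their left.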

How the data were processed

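RNA-Seq libraries of polyadenylated RNA from KO-actin MEFs (3 replicates, 1 condition) were analysed. The authors deposited raw read counts per Ensembl gene, not normalized; the submitters' processing notes name Trimmomatic, FastQC, HISAT2 and HTSeq with builds mm10 and GRCm38. Versions, annotation, strand setting and the handling of multimapped reads are not given in the sources used here, which can alter counts of overlapping or near-identical genes. Symbols, lengths and GC content came from GENCODE M21 (46005 of 46603 identifiers matched), where Cct6a has no coding transcript (its longest transcript was used), and start windows from RefSeq GRCm38.p6. Exosc6 was not used here. Libraries held 44383636 to 49932446 counts.

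TMM factors (edgeR 4.0.16, R 4.3.3) used the genes that reached 10 counts in all libraries. Variation between libraries was tested by chi-square with Benjamini-Hochberg adjustment over 13814 genes, and pairs of subunits by exact sign-flip permutation. On counts simulated with counting error alone, the chi-square called 122 of 200 genes changed by 1.2-fold (5 unchanged genes called). It called 172 of 200 changed by 1.5-fold (5 unchanged). These simulated counts lacked any further spread between libraries, so they do not give the rate of false calls in the real data. Alternatives were DESeq2 1.42.0 size factors, total counts, other count filters, GC bins, edgeR's quasi-likelihood fit, other lengths, added partner counts and leaving out each replicate. Python 3.11.15, numpy 2.4.6, pandas 2.3.3, scipy 1.17.1 and matplotlib 3.10.9 were used. All members, all prefoldin subunits, the 3 highest and 3 lowest genes of the other lists and genes sharing sequence with members could be named. Members and lists were chosen with earlier results of these data known.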

Additional observations from a re-analysis of the deposited data

How the results depend on the processing

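No paired analysis was possible because all libraries belong to 1 condition. The CV over TRiC subunits (46.5%) was 26.6% with the longest transcript length, 17.2% with coding sequence, 15.9% with no length, 45% with partner counts added and 44.0% with exon length without bases shared with other genes, the last chosen after seeing the data. The highest subunit over the lowest (3.40-fold) became 2.39, 1.77, 1.78 and, without shared bases, 3.29. Prefoldin over TRiC (0.354) became 0.273, 0.518 and 0.138 under the first 3 lengths in the same order. Leaving out 1 replicate gave CVs of 46.2 to 46.9%, folds of 3.39 to 3.41 and ratios of 0.347 to 0.363. The number of members varying between libraries was 8, with 7 under DESeq2 size factors (43.9% of genes called), 10 under total counts (43.9%), 8 with a minimum of 1 count (34.6%), 8 with a minimum of 100 counts (51.7%) and 8 with GC bins (28.9%). It ranged from 4 to 7 when a replicate was left out. It fell to 4 without replicate 1, where Cct2, Cct4, Pfdn1 and Pfdn2 lost their calls (32.9% of genes called), and to 5 without replicate 2, where Cct2, Cct5 and Cct6a lost theirs (12.4% of genes called; Cct6a adjusted p = 0.752, chi-square). The edgeR quasi-likelihood fit, in which replicate 2 stood alone on its side, called fewer members, and its p-values are not given. These fits differ in the number of libraries or in the spread they allow. Of 53 mean levels of single members recomputed, 2 moved by over 1 SD, Tcp1 and Cct6a with partner counts added. Between subunits, 3 libraries cannot reach p = 0.05 in the exact permutation test. The unknown strand setting limits Tcp1, Cct6a, Cct7, Cct8, Pfdn2 and Pfdn4. The transcript and no-length values of the summed actin and tubulin levels were also chosen after seeing the data.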

Other observations

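Other chaperones of the cytosol and mitochondrion lay on both sides of TRiC per kilobase of exon. Hsp90ab1, the constitutive HSP90, had 1529 ± 6.71 CPM per kilobase of exon (SD, n = 3), the highest of 11 such genes, followed by Stip1 (308 ± 2.53), which links HSP70 to HSP90. Hspd1, the mitochondrial chaperonin related to TRiC, had 284 ± 16.8, above Cct5 at 249 ± 3.23. Per kilobase of the longest coding transcript their order turned, with Hspd1 at 310 ± 18.3 and Cct5 at 371 ± 4.83. Hsf1, the heat shock transcription factor (18.1 ± 0.549), Dnaja1 (30.2 ± 1.34) and Hsph1 (35 ± 1.37) were the lowest. By the chi-square across libraries 10 of 11 varied, 7 lower and 3 higher in replicate 2, against 43.8% of all genes and 74.7% of genes with 100 to 1000 CPM. Hspd1 was lowest in replicate 2, with a log2 difference of -0.15 from the mean of the other libraries, beside -0.14 for Cct6a.

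The tubulin folding cofactors, which act after TRiC, were led by Tbca (139 ± 4.13 CPM per kilobase of exon), Tbcb (43.2 ± 0.721) and Tbcc (23.6 ± 2.49). Tbce (4.29 ± 0.331), Tbcel (4.45 ± 0.365) and Tbcd (13.0 ± 0.707) were lowest of the 7. The chi-square called 6 of 7, with 4 higher and 2 lower in replicate 2, against 43.8% of all genes. Of 8 genes of the prefoldin-like and R2TP complexes, Ruvbl1 (44.0 ± 1.72), Ruvbl2 (43.2 ± 1.19) and Pih1d1 (28.3 ± 0.593) were highest, and Uxt (3.95 ± 0.370), Wdr92 (8.65 ± 0.312) and Uri1 (9.78 ± 0.232) lowest. Of these 8, 2 were called, Ruvbl1 and Ruvbl2, against the same 43.8%.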
